A study of Mus musculus with 3 samples.

Results

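The 8 genes described here code for calcium-binding proteins of the annexin and S100 families in sorted mouse retinal cells. They are *Anxa1*, *Anxa2*, *Anxa5*, *S100a1*, *S100a6*, *S100a10*, *S100a11* and *S100b*, matched by symbol among the 32287 features of the libraries, which list 28 *Anxa* and *S100* genes in all. They were chosen by their levels and shares of cells in these same libraries, so the differences between control, CCA and CCANT given for them are descriptions. Müller glia (MG), the main glia of the retina, came from mice of the genotype Glast-CreERT2; R26-CAG-LSL-Tdt, in which tamoxifen turns on tdTomato in cells that use the *Glast* promoter. Per the labels, every mouse received 75 mg/kg tamoxifen on 5 days from P20, an intravitreal AAV7m8 injection at P28, and was harvested at P51. The control vector was AAV7m8-GFAP-GFP-LacZsh, whose GFAP promoter drives GFP beside a hairpin against LacZ. In the CCA group it made up 1 part to 9 parts of AAV7m8-GFAP-cyclin D1-p27sh, which carries cyclin D1 and a hairpin against p27. Only retinas with good infection by their GFP were taken. The CCANT group received CCA, then NMDA at P35 and TSA at P37.

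Each group is 1 droplet library from 2 to 4 pooled retinas, so there are no replicates and no test between groups was made. The libraries held between 219051219 and 224515457 UMIs, and the joint table of quality-controlled tdTomato+ cells holds 3758 control, 3890 CCA and 3278 CCANT cells with a median of 24236, 20710 and 20722 UMIs. Levels are given as CPM, the UMIs of a gene per 1000000 UMIs of all genes summed over the cells of a library. Brackets hold exact 95% Poisson intervals for levels and ratios and exact binomial (Clopper-Pearson) intervals for shares of cells, all for counting error only. Between 2 and 8 barcodes were shared by any 2 libraries within the joint table. The 9 MG markers summed to 26388, 26952 and 28694 CPM in control, CCA and CCANT, with *Apoe* alone at 9254, 11200 and 13365. Their median log2 ratio to control was -0.19 in CCA and -0.16 in CCANT. Of the 10926 cells, 10009 fell into clusters named MG-like. Control cells with sex-linked UMIs were all male, CCA cells were all female and CCANT cells were of both sexes, so sex and CCA cannot be told apart between those 2 libraries. The 10 rod markers summed to 364, 1044 and 1930 CPM, and the 12 immediate-early and stress genes that tissue dissociation is known to raise to 3948, 7471 and 7215 CPM. The part of either in the levels of the 8 genes was not tested beyond the values given beside them.

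Annexins bind acidic membrane phospholipids when calcium rises, and take part in membrane repair, vesicle traffic and the link between membrane and actin. S100 proteins are small EF-hand calcium sensors that act mostly by binding partners, among them annexins. S100A10, which has lost calcium binding, pairs with annexin A2, and S100A11 is a known partner of annexin A1. In the retina, annexin and S100 transcripts are known from MG, and S100B is a classical astrocyte protein.

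In the GRCm38 annotation, 4 of the 5 S100 genes lie on chromosome 3. *S100a11* (chr3:93520488-93526287) ends 28.8 kb before *S100a10* (chr3:93555080-93564643) starts, on the same strand. *S100a1* (chr3:90511034-90514392) lies 98.5 kb from *S100a6* (chr3:90612882-90624181), and that pair lies 2896 kb from the other pair. *S100b* is at chr10:76253853-76261159, *Anxa1* at chr19:20373428-20390944, *Anxa2* at chr9:69453620-69491795 and *Anxa5* at chr3:36448923-36475894. *Anxa1*, *Anxa2* and *S100b* each overlap a gene of the other strand (*1500015L24Rik*, *Gm16144* and *Dip2a*). The sources used here do not say how strand was used in counting, and any part of those genes in the UMIs was not tested.

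Upstream sequence is shown for *Anxa2* and *S100a11*, the only genes of the 7 with a RefSeq promoter entry that held the letters TGANTCA, the core that AP-1 (Fos and Jun) factors bind. The window ran from 250 bases before to 50 bases after the start, and the motif reads the same on both strands. It was present in 7.81% of the 32851 promoters of that length. The upstream stretch of *S100a6* is printed with them because that gene also differed most among the S100 genes, and it lacks these letters. TTCNNNGAA, the core of STAT sites, was in 8.30% of all promoters and in none of the 7. Each line gives the last 150 bases before the RefSeq start (GRCm38.p6, plus strand), with AP-1 letters in capitals.
Anxa2, chr9:69453533-69453682: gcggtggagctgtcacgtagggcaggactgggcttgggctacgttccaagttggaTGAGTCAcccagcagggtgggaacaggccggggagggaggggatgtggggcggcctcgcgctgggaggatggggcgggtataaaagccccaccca
S100a11, chr3:93520346-93520495: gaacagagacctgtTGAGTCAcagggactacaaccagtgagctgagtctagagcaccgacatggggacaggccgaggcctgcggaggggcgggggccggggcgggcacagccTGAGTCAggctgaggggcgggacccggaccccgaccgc
S100a6, chr3:90612744-90612893: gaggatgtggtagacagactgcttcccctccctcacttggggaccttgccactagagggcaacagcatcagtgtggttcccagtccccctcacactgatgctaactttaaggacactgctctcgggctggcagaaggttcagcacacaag
The *Anxa2* match starts 95 bases before the start. The *S100a11* matches start 136 and 38 bases before it, and 0.46% of all promoters held 2 or more. A match is a description of letters and shows no binding.

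The question of the first comparison was how the 8 genes stood in MG that had received the cell cycle activator, alone or with NMDA and TSA, against control MG. *Anxa2* and *S100a6* were higher in both treated libraries, and *Anxa1*, *S100a10* and *S100a11* were higher by a smaller step. *Anxa5* and *S100a1* lay close to their control levels, and *S100b* was near 0 in every library. At a 1.5-fold limit, 2 of the 7 genes that passed a filter of 20 CPM on average and 50 UMIs were higher in CCA, where 2.99% of 7617 genes were, and 4 of 7 were higher in CCANT, where 3.11% were. None of the 7 was lower by that limit, as were 1.17% of genes in CCA and 2.91% in CCANT. *S100b* failed the filter, and *Anxa2*, below 20 CPM in the control, passed it only through the treated libraries. The median log2 ratio of the 7 was 0.50 in CCA and 0.64 in CCANT, beside 0.02 and 0.000988 over all genes. These counts come from the libraries that chose the genes.

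*Anxa2*, whose protein carries S100A10 to the membrane, was measured at 9.60 CPM in the control library, 31.2 in CCA and 45.2 in CCANT. Its 3 intervals (8.98 to 10.2, 30.0 to 32.4 and 43.6 to 46.8) do not overlap. Those of *Anxa1*, *Anxa5*, *S100a6* and *S100a11* do not overlap either, and how many of all genes had such intervals was not counted. *Anxa2* was 3.25-fold higher in CCA (log2 1.70 [1.59 to 1.81]) and 4.71-fold higher in CCANT (log2 2.23 [2.13 to 2.34]). Of the 7617 genes, 37 had a larger ratio in CCA and 28 in CCANT. *Anxa2* was chosen from these libraries and passed the filter only through the treated ones, so its rank is a description. The CCANT level was 1.45-fold that of CCA (log2 0.54 [0.46 to 0.61]).

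Cells were thinned at random to 8000 UMIs each, and 36 control, 103 CCA and 53 CCANT cells that were shallower were left out. An *Anxa2* UMI was found in 5.24% [4.55 to 6.004] of control, 16.3% [15.1 to 17.5] of CCA and 22.9% [21.5 to 24.4] of CCANT cells. Without thinning the shares were 14.3%, 29.5% and 41.8%. As a measure of free RNA, cells of all libraries together were thinned to 3000 UMIs. An *Anxa2* UMI was then held by 0.766% of rod-like cells and 6.46% of MG-like cells of the joint table. Their median depths were 5037 and 22063 UMIs before thinning, and the MG-like share mixes control with treated cells. At 8000 UMIs, most treated cells had no *Anxa2* UMI. There, 5 or more UMIs were found in 0.107% of control, 0.66% of CCA and 0.775% of CCANT cells.

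*S100a6*, which codes for calcyclin, was found at 304, 501 and 742 CPM in control, CCA and CCANT, or 7.72, 10.7 and 16.0 UMIs per cell. The ratios to control were 1.65-fold (log2 0.72 [0.70 to 0.74]) and 2.44-fold (log2 1.29 [1.27 to 1.31]). In thinned cells, an *S100a6* UMI was present in 80.2% [78.9 to 81.5], 85.03% [83.9 to 86.2] and 92.0% [91.0 to 92.9]. The upper tail differed more than these shares. Cells with 10 or more *S100a6* UMIs of 8000 made up 2.44% of control, 8.21% of CCA and 14.6% of CCANT cells, and cells with 20 or more made up 0.752%, 2.83% and 5.24%.

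*S100a10* had 171, 253 and 250.2 CPM in control, CCA and CCANT. Here the treated libraries did not separate from each other (log2 -0.01 [-0.04 to 0.01]), while both stood above the control at 1.48-fold and 1.46-fold, just short of the 1.5-fold limit. *S100a11* went from 75.4 CPM in control to 106.8 in CCA and 117.7 in CCANT, 1.42-fold and 1.56-fold of control, so it crossed the limit only in CCANT. An *S100a11* UMI was found in 43.4%, 51.9% and 56.4% of thinned cells, and an *S100a10* UMI in 70.2%, 77.2% and 78.0%.

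*Anxa1*, whose protein is a ligand of formyl peptide receptors and is known to dampen inflammation, stood at 156 CPM in control cells, 219.8 in CCA and 261 in CCANT cells. Its ratios were 1.41-fold (log2 0.50 [0.47 to 0.53]) and 1.68-fold (log2 0.75 [0.72 to 0.78]), and its share of thinned cells 46.8%, 58.7% and 62.9%. *Anxa5*, whose protein binds exposed phosphatidylserine, stood at 191, 211 and 228 CPM, within 1.19-fold of control. *S100a1* had 239, 242 and 231 CPM, log2 0.01 [-0.01 to 0.04] and -0.05 [-0.08 to -0.02] against control, so the genes did not all differ alike. *S100b* had 5.51, 6.04 and 7.33 CPM, or 526, 503 and 519 UMIs.

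**Figure D1:**
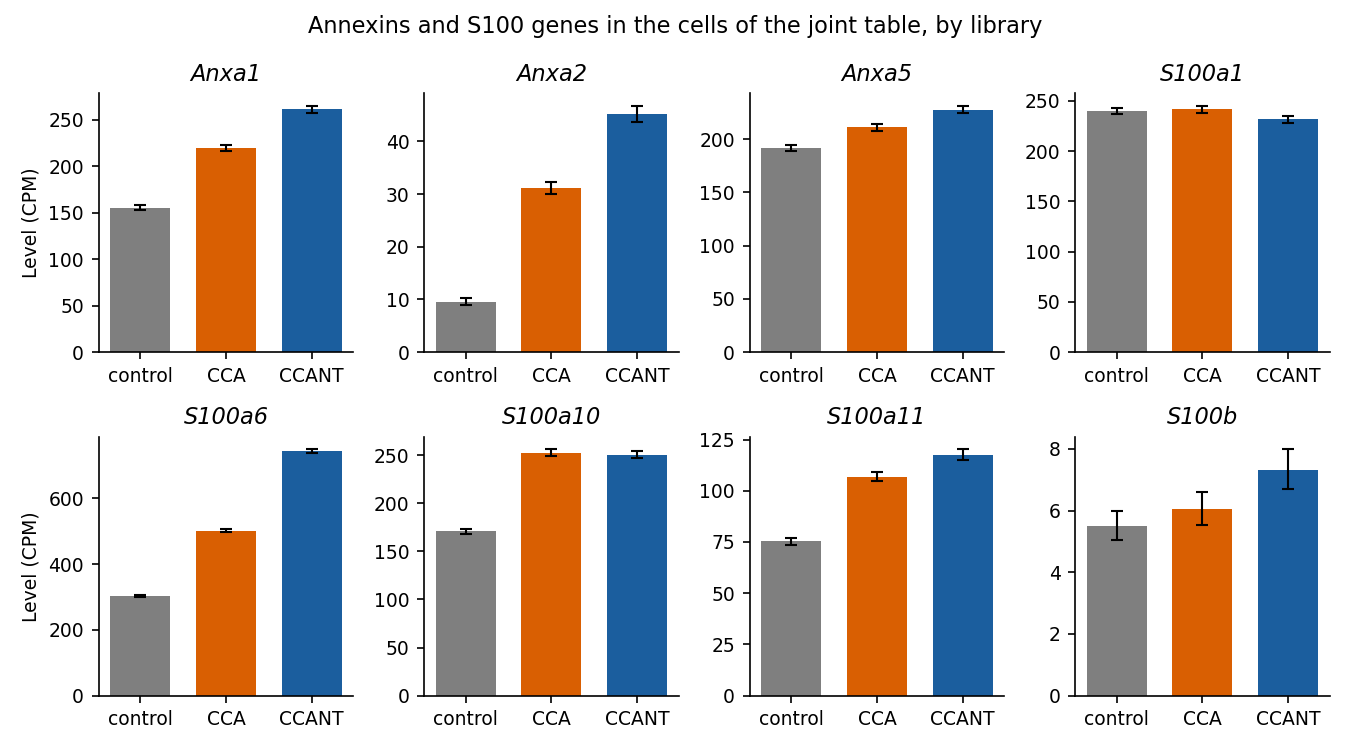
Level of each gene (CPM, y axis) in the cells of the joint table of the control, CCA and CCANT libraries (x axis); bars are 1 library each and error bars are exact 95% Poisson intervals of the UMI count. *Anxa2* goes from 9.60 to 31.2 and 45.2 CPM and *S100a6* from 304 to 501 and 742 CPM, while *S100a1* stays between 231 and 242 CPM; y axes differ in scale.

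The number of the 3 annexins seen per thinned cell was also different, as it would be from the shares of the single genes alone. Whether the 3 occurred together beyond those shares was not tested. All of *Anxa1*, *Anxa2* and *Anxa5* were found together in 2.36% [1.90 to 2.90] of control, 8.48% [7.61 to 9.41] of CCA and 14.1% [12.9 to 15.3] of CCANT cells. None of them was found in 11.3%, 8.40% and 7.13%. Cells with *Anxa2* more often held its partner *S100a10* as well. In CCA, *S100a10* was found in 86.2% [83.2 to 88.8] of the 617 cells with an *Anxa2* UMI and in 75.4% [73.9 to 76.9] of the 3170 without one. The corresponding shares were 85.9% and 75.6% in CCANT and 82.6% and 69.5% in control. Genes other than the partner showed this too. *S100a11* was found in 57.9% and 42.6% of control, 64.8% and 49.4% of CCA and 67.3% and 53.2% of CCANT cells with and without *Anxa2*. For *S100a6* the shares were 90.3% and 79.7%, 89.95% and 84.1%, and 94.7% and 91.2%.

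Male and female cells of CCANT differed for some of the genes. They come from different mice of 1 pool, so sex and mouse cannot be told apart. Among CCANT cells, the 1183 male cells had 49.6 CPM of *Anxa2* and 799.9 of *S100a6*, against 38.8 and 677 CPM in the 1718 female cells. *Anxa1* went the other way, with 226 CPM in male and 283 in female CCANT cells. Male CCANT over male control cells gave 5.10-fold for *Anxa2*, 2.64-fold for *S100a6*, 1.60-fold for *S100a11*, 1.54-fold for *S100a10* and 1.45-fold for *Anxa1*. With males alone, *Anxa1* thus fell short of the 1.5-fold limit and *S100a10* passed it. Female CCANT over female CCA cells gave 1.24-fold for *Anxa2*, 1.35-fold for *S100a6* and 1.29-fold for *Anxa1*.

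The calls were also made in other sets of cells. In cells where rod markers made up less than 0.5% of UMIs, the same 2 genes in CCA and the same 4 in CCANT remained past the limit. Among all MG-like cells, with no tdTomato requirement, *S100a11* fell just short of the limit in CCANT (log2 0.56, beside 0.64 in cells of the joint table). The share of all genes past the limit was not counted in these sets or in male cells alone. The *Anxa2* ratio ranged from log2 1.62 to 1.93 in CCA over 8 alternatives and from 2.12 to 2.38 in CCANT over 9.

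The second question was whether the genes differed between cycling and other cells. Cycling cells, those with a UMI of *Mki67* or *Top2a*, numbered 42 in control, 752 in CCA and 299 in CCANT. No control cell lay in the clusters led by *Lockd*, *Hmgb2* and *Pcna* or by *Top2a*, *Cenpf* and *Mki67*. Whether the 42 control cells were in cycle was not tested. Levels of *S100a10* and *S100a11* were higher in the cells with such UMIs in all 3 libraries, by less than 1.5-fold. None of the 7 genes was 1.5-fold lower in cycling CCA cells, as were 0.158% of 7611 genes, and none was 1.5-fold higher, as were 3.06%. *S100a10* had a ratio of 1.45-fold in CCA (log2 0.53 [0.49 to 0.58]) and 1.39-fold in CCANT (log2 0.47 [0.41 to 0.53]). For *S100a11* the ratios were 1.36-fold (log2 0.45 [0.38 to 0.52]) and 1.30-fold (log2 0.38 [0.29 to 0.47]). *Anxa1*, *Anxa2*, *Anxa5*, *S100a1* and *S100a6* stayed within log2 0.11 of the other CCA cells. *Anxa2* was 1.36-fold higher in cycling CCANT cells (log2 0.44 [0.29 to 0.59]) and not in CCA (log2 0.01 [-0.13 to 0.15]); the difference between the libraries was not tested. In the 42 cycling control cells, *S100a10* was at 1.37-fold (log2 0.46 [0.28 to 0.63]) and *S100a11* at 1.29-fold (log2 0.36 [0.09 to 0.63]), with *Anxa1* at 1.36-fold and *S100a6* at 1.35-fold. *Anxa2* was at 2.73-fold (log2 1.45 [0.88 to 1.96]), from 31 UMIs in 7 cells. The share of cells with an *Anxa2* UMI was 7.14% [1.498 to 19.5] of these and 5.22% of the other control cells after thinning. In CCA, *S100b* was at 0.67-fold, log2 -0.59 [-0.96 to -0.23], at a level near 6 CPM. That is just past 1.5-fold lower, for a gene that failed the filter.

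**Figure D2:**
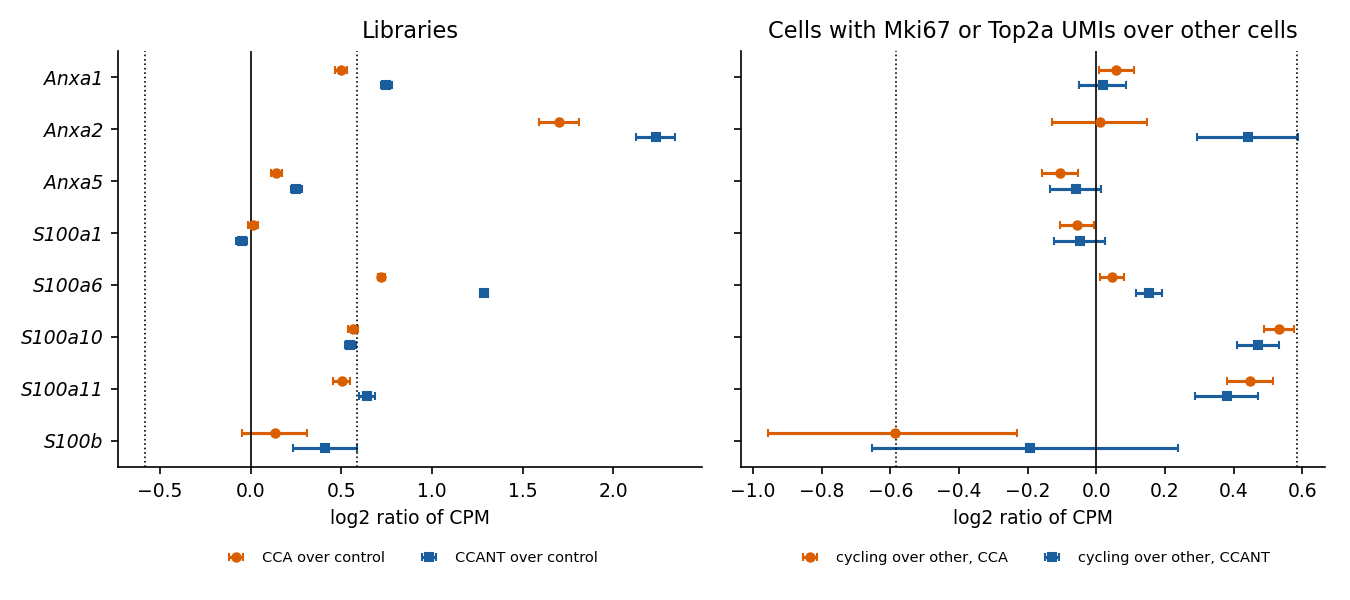
Log2 ratio of the level (x axis) of each gene (y axis), on the left for CCA (circles) and CCANT (squares) over control, on the right for cells with *Mki67* or *Top2a* UMIs over other cells of the same library; bars are exact 95% intervals for counting error and dotted lines mark 1.5-fold. *Anxa2* and *S100a6* lie farthest right on the left side, and *S100a10* (0.53 in CCA and 0.47 in CCANT) on the right side, where *S100a11* is at 0.45 and 0.38 and *Anxa2* at 0.01 and 0.44.

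The class of cycling cells mixes cells with 1 marker UMI and cells with many. In bins set after the values had been seen, the 2 neighbouring genes of chromosome 3 stood higher in CCA with each step in the number of *Mki67* and *Top2a* UMIs. *S100a10* had 231 CPM in the 3138 CCA cells with none, 257 in the 512 cells with 1 or 2, 363 in the 92 cells with 3 to 9 and 522 [500.4 to 543] in the 148 cells with 10 or more. The top bin was 2.26-fold the first (log2 1.18 [1.11 to 1.24]), or 15.5 against 4.83 UMIs per cell. In CCANT the same bins gave 240.5, 289, 357 and 475 CPM over 2979, 221, 29 and 49 cells, 1.97-fold in the top bin. *S100a11* went from 99.1 to 112, 155 and 188 CPM in CCA, and in CCANT from 114 to 136, 215 and 160.0.

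In CCA, other genes of the set did not follow. *S100a6* had 498, 575, 475 and 371 CPM over the CCA bins, so it was highest with 1 or 2 cycling UMIs and lowest with 10 or more (log2 -0.42 [-0.50 to -0.35] against none). *Anxa5* was at 214, 213, 157 and 179 CPM, and *S100a1* at 244, 246, 226 and 206. *Anxa1* stayed between 201 and 237 CPM and *Anxa2* between 26.7 and 33.4. In CCANT, *Anxa2* had 43.5, 59.5, 48.4 and 63.1 CPM, so its top bin was above the first there (log2 0.53 [0.22 to 0.83]). In the same bins, *S100a6* had 734, 880.4, 611 and 689 CPM, above every CCA bin.

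Lymphocytes of these libraries also had much *S100a10*, so their markers were set beside the bins. The 8 T and NK markers summed to 10.5, 10.8, 7.23 and 5.70 CPM over the CCA bins. In CCANT they were at 4.67, 5.02, 62.6 and 1.99 CPM, with the raised value in the bin of 29 cells. The part of lymphocyte RNA in the levels was not tested. The 9 MG markers summed to 27865 CPM in CCA cells without cycling UMIs and to 13302 CPM in those with 10 or more. Median depth was 20394 UMIs in the first and 30043 in the last CCA bin. After thinning to 8000 UMIs, which moves cells to lower bins, *S100a10* had 238 CPM in the first and 632 in the last bin, and *S100a6* 484 and 383.

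**Figure D3:**
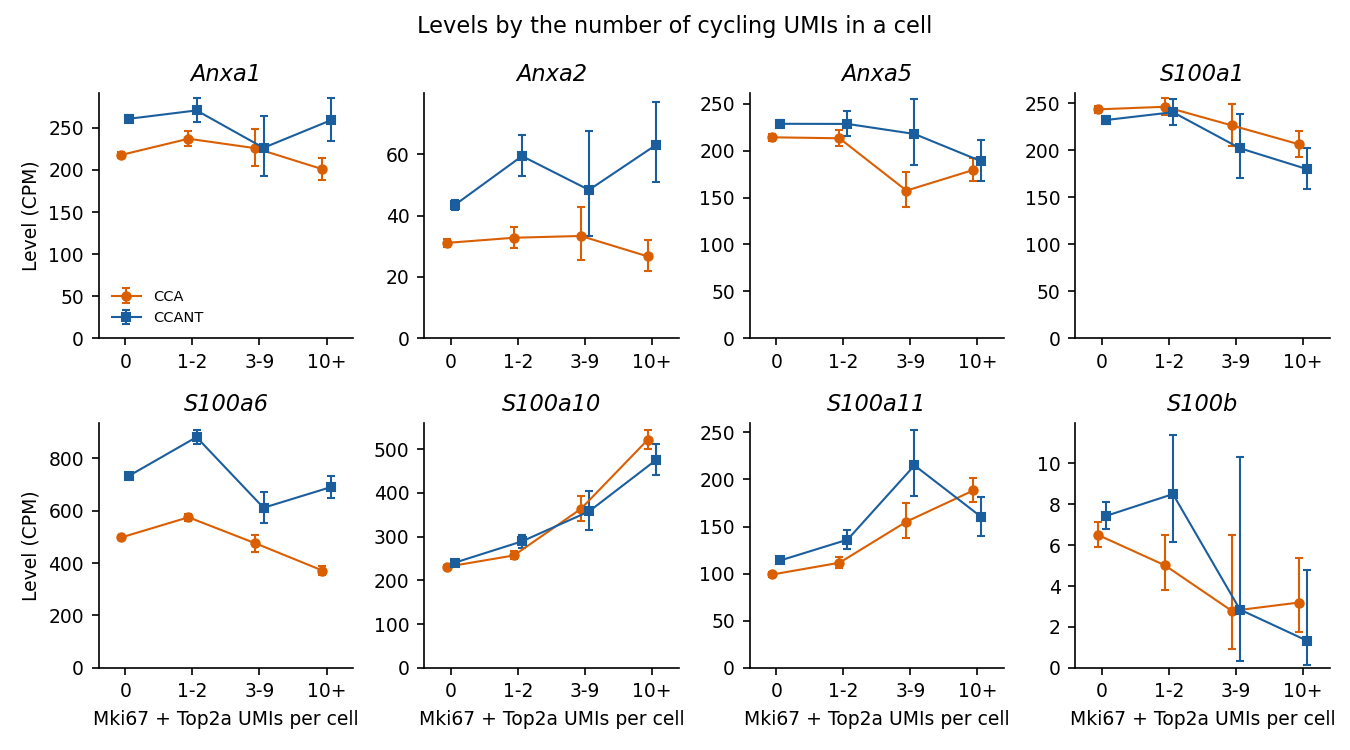
Level of each gene (CPM, y axis) against the number of *Mki67* and *Top2a* UMIs of a cell (x axis, 4 bins) in CCA (circles) and CCANT (squares) cells; error bars are exact 95% Poisson intervals. *S100a10* goes from 231 to 522 CPM in CCA and from 240.5 to 475 in CCANT, while *S100a6* in CCA ends at 371 CPM, below its start at 498.

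Levels were also set beside *Gfap*, the intermediate filament of reactive glia, within each library. In thinned cells of the control, *Anxa2* stood at 6.97 CPM without *Gfap* (3424 cells), 16.7 with 1 UMI (187 cells) and 43.9 [31.2 to 60.0] with 2 or more (111 cells). *S100a6* went from 269 to 437 and 855 CPM in the same cells. Treated cells without *Gfap* had 27.5 CPM of *Anxa2* and 408 of *S100a6* in CCA, and 37.7 and 594 in CCANT. Control cells with 2 or more *Gfap* UMIs thus held more *S100a6* than either, while their *Anxa2* interval reached over the CCANT value.

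Differences between libraries remained for several genes within bins of *Gfap*, the last of which is open above. Without *Gfap* UMIs, control, CCA and CCANT cells had 149, 211 and 248 CPM of *Anxa1* and 165, 235 and 226 of *S100a10*. *Anxa2* had 6.97, 27.5 and 37.7 CPM there, and 16.7, 40.2 and 53.3 with 1 UMI. The control interval lay below the treated intervals for each of these values. With 2 or more *Gfap* UMIs, *S100a6* had 855, 969 and 1203 CPM in control, CCA and CCANT, and *Anxa2* 43.9, 68.7 and 71.5 CPM. The control interval of *Anxa2* [31.2 to 60.0] overlapped that of CCA [59.6 to 78.8] and lay below that of CCANT. *S100a10* stood at 342, 407 and 334 CPM in these cells, with the control interval below that of CCA and overlapping that of CCANT. For *Anxa1*, at 282, 271 and 324 CPM, the control interval overlapped those of both treated libraries. *S100a1* had 240.3, 251 and 259 CPM over the control bins, with intervals that overlap, and 224, 230.5 and 276 CPM in CCANT. Cells with 2 or more *Gfap* UMIs numbered 111 in control, 371 in CCA and 444 in CCANT.

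Astrocytes also express *Gfap*, and astrocyte-like cells of these libraries had 1538 CPM of *S100b*. Cells with 2 or more *Gfap* UMIs held 1.13, 3.03 and 7.60 CPM of *S100b* in control, CCA and CCANT. The immediate-early and stress genes moved with *Gfap* as well, from 3723 to 6770 CPM over the control bins, from 7195 to 10664 in CCA and from 6862 to 8396 in CCANT. Rod markers were at 345 and 518 CPM in the first and last control bin. The part of these in the levels was not tested.

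**Figure D4:**
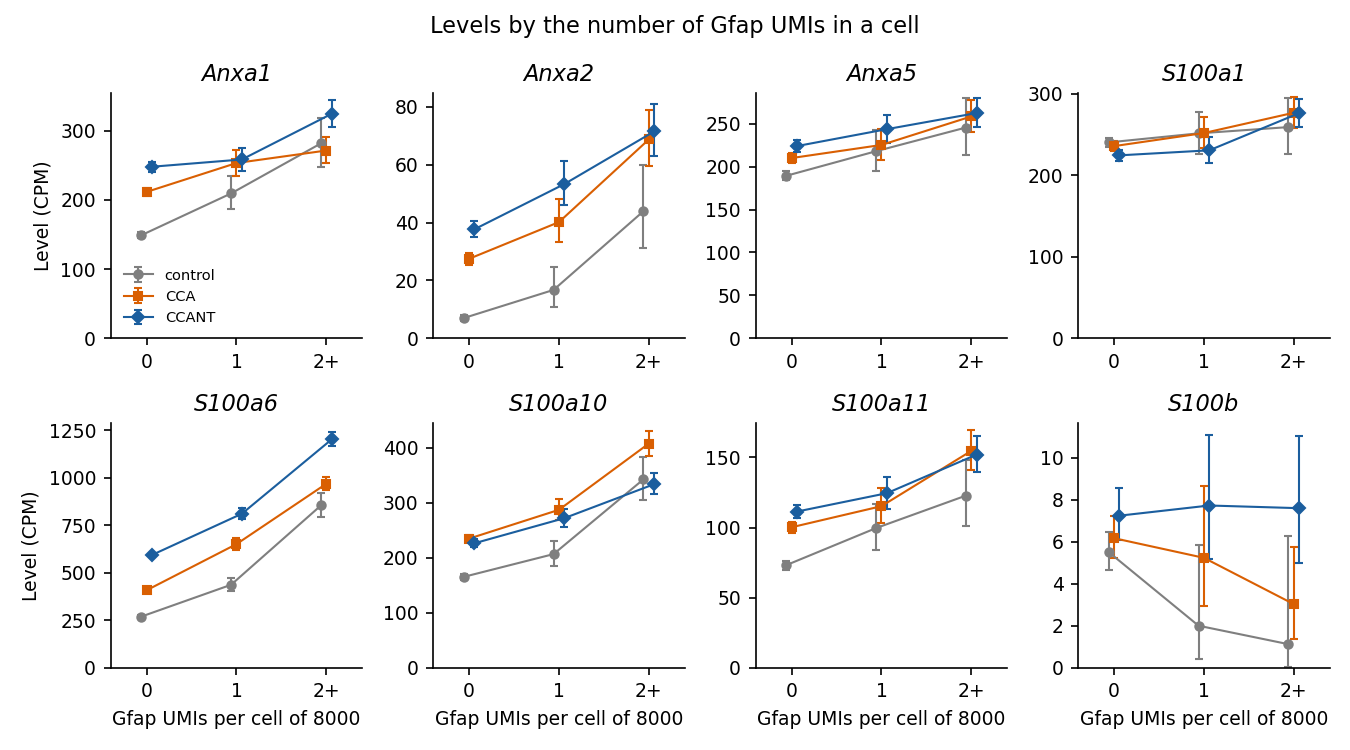
Level of each gene (CPM, y axis) against the *Gfap* UMIs of a cell thinned to 8000 UMIs (x axis: 0, 1, 2 or more) in control (circles), CCA (squares) and CCANT (diamonds); error bars are exact 95% Poisson intervals. *S100a6* goes from 269 to 855 CPM in control and from 594 to 1203 in CCANT, and *S100a1* stays between 224 and 277 CPM in all 9 points.

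GFP, the reporter of the control vector, was set beside the genes in the same way. Control cells with 0, 1 and 2 or more GFP UMIs had 146, 172 and 199 CPM of *Anxa1* and 283, 325 and 333 CPM of *S100a6*, but 172, 174 and 175 CPM of *S100a10*. The immediate-early and stress genes were at 3620, 4316 and 5134 CPM in the same bins and the astrocyte markers, *Gfap* among them, at 59.5, 86.0 and 95.9, and their part was not tested. GFP UMIs were rare in the treated libraries, where 74 CCA and 62 CCANT cells had 1. From 0 to 1 GFP UMI, *S100a6* went from 487 [479 to 495] to 422 [372 to 478] CPM in CCA and from 709 to 696 in CCANT. *Anxa1* went from 221 to 199 CPM in CCA and from 258 to 359 in CCANT.

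Clusters of MG-like cells, made with all *Anxa* and *S100* genes left out, divided the genes further. The cluster led by *Aldh1a1*, *Zfp36*, *Ccn1* and *Fos* had 52.8, 79.7 and 79.6 CPM of *Anxa2* and 620.2, 868 and 1101 CPM of *S100a6* in control, CCA and CCANT, over 92, 809 and 1361 cells. The cluster led by *Car14* had 16.0, 25.3 and 24.8 CPM of *Anxa2* and 339, 490 and 534 CPM of *S100a6*. In the one led by *Iigp1*, *Anxa2* had 11.4, 31.1 and 33.3 CPM and *S100a6* 359, 571 and 741 CPM. Another cluster, led by *Gm11906*, *Spc25* and *Pon2*, had 4.71, 6.98 and 12.4 CPM of *Anxa2* and 235, 265 and 276 CPM of *S100a6*, over 2434, 1067 and 477 cells. Within this cluster the *S100a10* levels were 159, 154 and 135 CPM, lowest in CCANT. In the other 3 MG-like clusters with cells of all libraries, *S100a10* was higher in CCA than in control, with 181, 221 and 198 CPM in the one led by *Car14* (246, 2099 and 2922 cells), 179, 241 and 242.5 in the one led by *Iigp1* (2878, 444 and 91 cells) and 321, 370.04 and 331 in the one led by *Aldh1a1*. Most control cells lay in the clusters led by *Gm11906* and *Iigp1*, and most CCANT cells in those led by *Car14* and *Aldh1a1*. The cluster led by *Top2a*, *Cenpf* and *Mki67* held no control cells, and had 451 CPM of *S100a10* in CCA and 423 in CCANT.

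The third question was where else in the sorted libraries the genes were found. Cells that passed limits of 2000 features as a minimum, and of 100000 UMIs and 15% mitochondrial UMIs as maxima, were clustered, and clusters were named from marker genes. For each class, the level that carried-over MG RNA would give was computed from *Glul*, the glutamine synthetase of MG. Clusters that passed for 2 classes are left out of the orders given here. *Anxa1* was highest in MG-like cells, at 205 CPM over the 3 libraries, ahead of pericyte-like cells at 119.6 [108 to 132] and endothelial-like cells at 72.5. The order of the last 2 turned with the library, with 79.3 CPM in pericyte-like and 127 in endothelial-like cells of the control and 138 and 54.1 in CCA. In amacrine-, bipolar-, cone- and rod-like cells it stood at 17.8, 6.87, 7.62 and 11.1 CPM, where carry-over would give 21.3, 8.24, 6.72 and 10.9.

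*Anxa2* was higher in several classes outside MG. Endothelial-like cells had 210.1 CPM [191 to 231], astrocyte-like cells 184, pericyte-like cells 82.5 and T and NK-like cells 77.5, beside 25.1 CPM in MG-like cells. Their carry-over levels were 7.82, 7.28, 5.18 and 6.41 CPM. The order depended on how cells were chosen: taken by marker shares in place of clusters, 114 T and NK cells had 212 CPM [191 to 236] and 161 endothelial cells 174 [156 to 193]. Retinal ganglion-like cells had 28.5, 26.6 and 34.5 CPM in control, CCA and CCANT, where carry-over would give 0.55, 1.60 and 1.97. That was above MG-like cells in control (9.56 CPM) and not in CCA (30.6) or CCANT (42.9). Pooled over the libraries, rod-like cells had 2.57 and cone-like cells 0.883. *Anxa5* was at 383 CPM in astrocyte-like, 267 in pericyte-like, 221 in endothelial-like and 208 in MG-like cells. Among neurons it had 110.0 CPM in ganglion-like and 104.7 in horizontal-like cells, with carry-over levels of 11.5 and 16.7.

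The S100 genes differed in their other sources. *S100a10* was highest in T and NK-like cells, at 524 CPM [493 to 555], then in the cluster led by mitotic genes at 445, and stood at 231 CPM [223 to 239] in ganglion-like cells, where carry-over would give 11.8. *S100a11* had 324 CPM in pericyte-like and 323 in T and NK-like cells, which their intervals do not separate, 162 in endothelial-like and 94.7 in MG-like cells. *S100a6* is given by library because its MG level differed so much between them. MG-like cells had 304, 509.8 and 743 CPM in control, CCA and CCANT, and T and NK-like cells 633, 542 and 920.2 over 76, 32 and 24 cells. T and NK-like cells were thus higher in control and CCANT, while in CCA their interval [473 to 618] covered the MG level. *S100a1* was highest in MG-like cells at 240.3 CPM, with 213 in astrocyte-like cells, and cone-like cells had 36.2 where carry-over would give 7.86. Pooled over the libraries, it lay between 13.8 and 45.2 CPM in neurons other than cones.

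*S100b* belonged to the astrocyte-like cells, with 1538 CPM [1505 to 1571] over 190 cells, 142 of them in CCANT. Pooled over the libraries, no other named class had more than 15.2 CPM, the level of microglia- and macrophage-like cells, in which 12 CCANT cells held 158 UMIs. A *S100b* UMI was found in 97.9% of astrocyte-like cells thinned to 3000 UMIs, and in 1.80% of MG-like, 2.05% of bipolar-like and 0.766% of rod-like cells, with median depths of 26218, 22063, 15126 and 5037 UMIs. MG-like cells had 6.32 CPM [6.001 to 6.66], close to 5.87 [5.15 to 6.66] in bipolar-like cells and above 2.88 in rod-like, 2.10 in cone-like and 2.89 in amacrine-like cells. The share in MG-like cells was not above that of bipolar-like cells. Among MG-like clusters of CCANT, *S100b* had 9.02 CPM [8.27 to 9.83] in the one led by *Car14* and 4.73 [3.99 to 5.55] in the one led by *Aldh1a1*. The source of these UMIs was not tested.

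**Figure D5:**
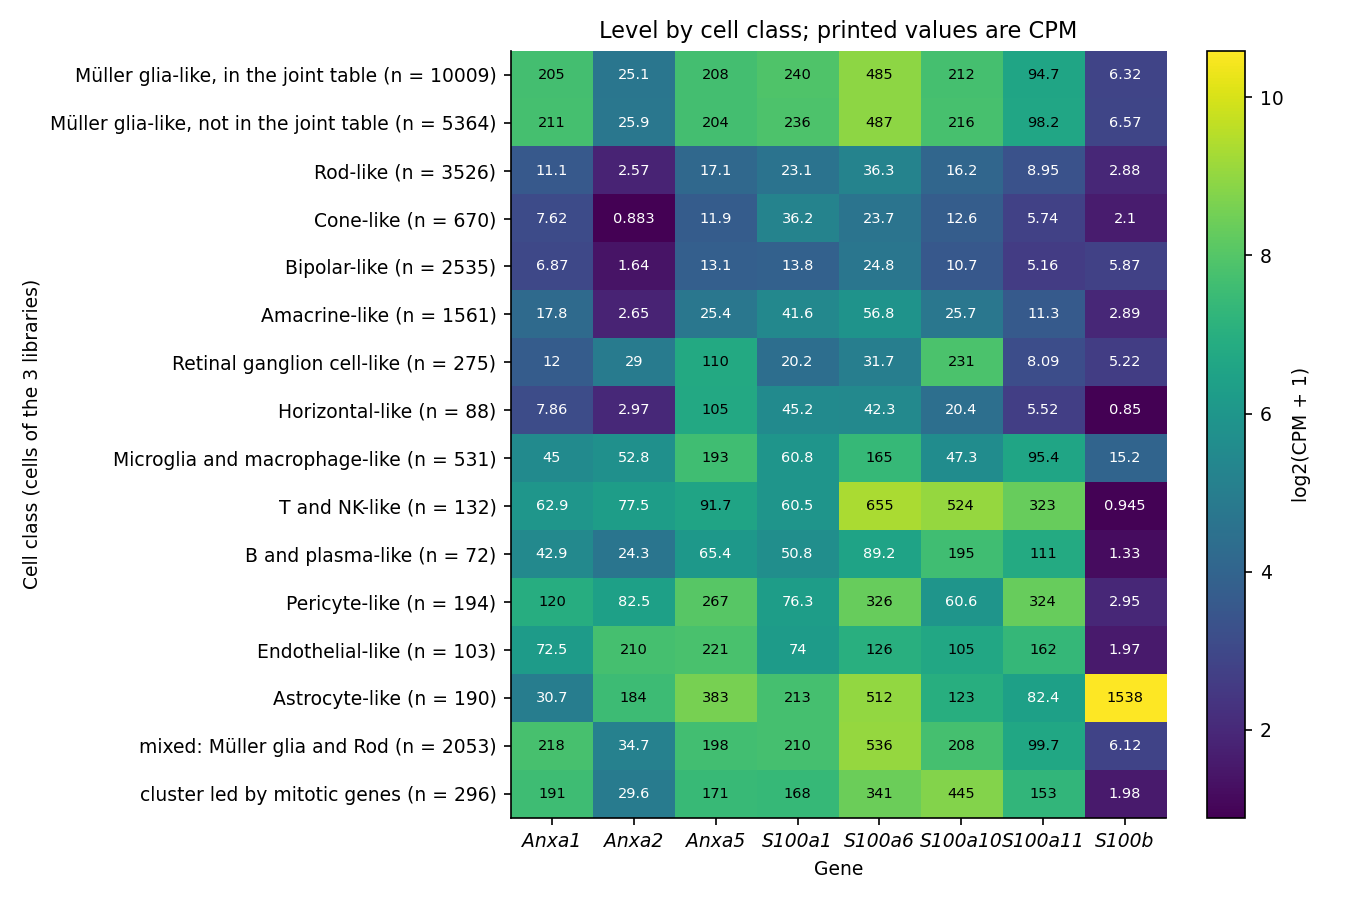
Level of each gene (columns) in each cell class of the 3 libraries together (rows, number of cells in brackets); color is log2(CPM + 1) and the printed values are CPM. *S100b* reaches 1538 CPM in astrocyte-like cells, *S100a10* 524 in T and NK-like and 231 in retinal ganglion-like cells, and *Anxa2* 210.1 in endothelial-like cells.

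Class levels were also compared between libraries. Rod-like cells had 17.3 CPM of *S100a6* in control, 32.3 in CCA and 52.2 in CCANT, and carry-over would give 14.4, 25.1 and 49.5, so the order of the libraries was that of the carried-over level, with the CCA value above it [28.3 to 36.7]. Bipolar-like cells had 14.3, 23.9 and 32.4 CPM, with 11.04, 20.3 and 34.8 from carry-over. In pericyte-like cells *S100a6* had 230.5, 285 and 569 CPM over 56, 98 and 40 cells, above the carry-over levels of 56.3, 105 and 192. Horizontal-like cells went the opposite way, with 65.7, 27.5 and 28.9 CPM over 30, 28 and 30 cells, log2 -1.26 [-1.83 to -0.72] in CCA over control. Endothelial-like cells had 150.3, 99.8 and 149.8 CPM, lower than control in CCA and not separated from it in CCANT (log2 -0.00464 [-0.47 to 0.46]). Astrocyte-like cells had 492 CPM of *S100a6* [445 to 541] in CCA, an interval that covers the MG-like level there, and 419.6 in CCANT, below MG-like cells, with too few control cells for a level. *S100a10* in ganglion-like cells stood at 208, 265 and 246 CPM over 144, 79 and 52 cells. *Anxa2* in endothelial-like cells had overlapping intervals in the 3 libraries, with 199.8, 228 and 189 CPM over 25, 47 and 31 cells.

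Genes with the most similar pattern were taken over 33 points of a class in a library with at least 50 cells, as Pearson's r of log2(CPM + 1) among 7617 genes. The points share libraries and free RNA, so r is a description. *S100a6* was nearest to *S100a13* (r = 0.97), *Plscr1* (0.96) and *Vim* (0.96), and *Anxa1* to *Pdgfc* (0.97), *Myb* (0.97) and *Chrdl1* (0.97). *Anxa2* was nearest to *Txndc17* (0.92), *Lgals1* (0.91) and *Anxa5* (0.91). *Anxa5* itself lay nearest to *Acadl* (0.98), *Arhgef40* (0.97) and *Hsd17b11* (0.96). *S100a1* was nearest to *Fzd5* (0.99), *Clu* (0.98) and *Gcnt4* (0.97), *S100a10* to *Prkcq* (0.94), *Lypd6* (0.93) and *Cd1d1* (0.92), and *S100a11* to *Tmem71* (0.97), *Myl12a* (0.97) and *Arid5a* (0.96). For *S100b* the nearest were *Gfap* (0.77), *Serpina3n* (0.76) and *Sall2* (0.70). Within the set, *Anxa1* and *S100a6* were most alike (0.94) and *Anxa1* and *S100b* least (0.07).

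Of the other 20 *Anxa* and *S100* genes, 6 passed the filter and none was 1.5-fold higher or lower in either treated library. Among these 6, *S100a4* had the largest ratio, at 44.8, 49.8 and 58.2 CPM (log2 0.38 in CCANT). Genes below the filter were not counted. Among them, *Anxa3* had 48, 123 and 149 UMIs (log2 1.55 and 2.06). *S100a3* was higher (log2 0.65 and 0.85) and *Anxa10* lower (log2 -0.69 and -0.71). *S100a13* stood at 74.9, 89.1 and 84.2 CPM, *S100a16* at 349, 339 and 305, *Anxa6* at 56.3, 62.9 and 58.8, *Anxa7* at 29.3, 34.3 and 35.04, and *Anxa4* at 20.5, 22.7 and 22.7. *S100a8* and *S100a9*, which neutrophils express strongly, had between 0 and 4 UMIs in a library. Among 19 known partners of the 8 proteins, 8 passed the filter. Those below it were not counted, among them *Dysf* (log2 0.79 and 1.95) and *Tlr4* (0.65 and 1.43). *Htr1b* went the other way (log2 -0.80 and -0.57) from 9 UMIs in each treated library. Of the 8 that passed, 1 was 1.5-fold higher in CCA and none in CCANT, beside 2.99% and 3.11% of all genes. That gene was *Plat*, tissue plasminogen activator, which the annexin A2 and S100A10 complex binds, with 69.6, 104 and 102 CPM. *Ahnak*, a scaffold of the same complex, had 55.6, 72.2 and 82.5 CPM, and *Pla2g4a*, the phospholipase that annexins inhibit, 31.1, 27.8 and 26.5. *Cacybp*, which codes for the calcyclin-binding protein, had 77.8, 77.6 and 73.9 CPM. *Capn2*, a calcium-activated protease, was at 51.7, 52.2 and 49.4 CPM and *Hltf* at 34.0, 33.8 and 35.6.

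Of 14 genes known from reactive glia, 13 passed the filter. By the 1.5-fold limit, 4 were higher and 1 lower in CCA, beside 2.99% and 1.17% of all genes. In CCANT, 3 were higher and none lower, beside 3.11% and 2.91%. *Gfap* had 22.8, 75.9 and 101.2 CPM, *Socs3*, a feedback inhibitor of cytokine signaling, 37.7, 139 and 137 CPM, and *Serpina3n* 12.1, 25.5 and 34.9 CPM. *Cebpd* stood at 358, 598 and 478 CPM. *Lcn2*, an acute-phase protein of reactive glia, had 131, 62.4 and 91.5 CPM and was the gene lower in CCA. *Tspo* had 75.4, 104.5 and 97.6 CPM. The log2 ratios of *Anxa2* (1.70 and 2.23) lay beside those of *Gfap* (1.73 and 2.15).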

How the data were processed

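tdTomato+ cells from 3 groups were sequenced as 1 droplet library each. The authors deposited UMI counts per gene and barcode from Cell Ranger 6.1.1 (mm10 with tdTomato and GFP, introns counted) plus 1 table that joins the libraries, with UMI counts of 10926 quality-controlled cells. Counts were taken from the library matrices for those cells, since the joint table holds a median of 93.1% of the UMIs of a control cell. The authors removed doublets from the joint table, and no doublet caller was run on the wider set of cells used for classes. The members, gene lists, markers and comparisons were chosen with earlier results of these data known. Named genes are the 8 members, other family genes that passed the filter, the 6 genes of the partner and of the reactive list with the largest ratios, and the 3 genes most like each member. A few family and partner genes below the filter were named after their values had been seen.

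UMIs were summed over cells and given as CPM. With 1 library per group, calls rest on a 1.5-fold limit, and genes needed a mean of 20 CPM and 50 UMIs. Shares used cells thinned at random to 8000 UMIs (3000 for classes). Classes came from Leiden clusters (leidenalg 0.10.2, scanpy 1.11.5; 2000 variable genes, 20 components, resolution 0.5) of all filtered cells, without *Anxa*, *S100*, sex-linked and reporter genes. Names followed a rule chosen with the clusters in view: a median marker level at least log2 1.5 above the median cluster, at least 3 raised markers and, outside MG, a marker among the 10 leading genes. Clusters that passed for 2 classes were called mixed, and 2842 cells stayed unnamed. Cells counted as male had 3 or more UMIs from 4 Y-linked genes with no more than 1 *Xist* UMI, and as female the reverse. Alternatives covered scaling, depth, cell selection, sex and thresholds. Scripts were tested on simulated data. The study's methods and the labels differ on the tamoxifen dose and start, the harvest day and the hairpin of the control vector (LacZ in the labels, non-target in the methods), and the labels were followed.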

Additional observations from a re-analysis of the deposited data

Results flagged for a closer look

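MG-like cells outside the joint table, which took no part in the comparison of control, CCA and CCANT cells of that table but are in the values by cluster and in the setting with no tdTomato requirement, showed levels of 2 of the genes over 1.5-fold those of control cells of the same kind. They numbered 1941 in control, 1224 in CCA and 2199 in CCANT. *Anxa2* had 9.30, 31.8 and 38.7 CPM there, a log2 ratio of 1.78 in CCA and 2.06 in CCANT over control. *S100a6* had 327, 515 and 629 CPM, with log2 ratios of 0.66 in CCA and 0.95 in CCANT. *Anxa1* was 1.37-fold and 1.38-fold of control there, *S100a10* 1.40-fold and 1.30-fold, and *S100a11* 1.34-fold and 1.37-fold. *Anxa1* and *S100a11*, past 1.5-fold in CCANT cells of the joint table, were below it in these cells. The share of all genes past 1.5-fold was not counted in these cells. They are cells of the same 3 libraries and no replicate of them.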

How the results depend on the processing

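With 1 library per group, no result has a replicate check, and intervals leave out the differences between mice. With a limit of 2-fold in place of 1.5-fold, 1 gene was higher in CCA (*Anxa2*) and 2 in CCANT (*Anxa2* and *S100a6*). Of 7617 genes, 37 had a larger ratio than *Anxa2* in CCA and 79 a larger one than *S100a6* in CCANT. Both genes were chosen from these libraries, and *Anxa2* passed the filter only through the treated ones, so these ranks are descriptions. The share of all genes past 2-fold was not counted. With a filter of 50 UMIs alone, 2341 of 18327 genes were 1.5-fold higher in CCA (228 with the 20 CPM filter) and 2197 in CCANT (237). Under the other planned settings, the counts of genes higher in CCA or CCANT, or lower in cycling CCA cells, stayed within 1.5 times. *S100a10* joined in CCA with the mean over cells of each cell's CPM, giving 3 genes. In male cells alone, *S100a10* took the place of *Anxa1* in CCANT. The genes past 1.5-fold among all genes were counted again only for the filter of 50 UMIs and for size factors. No ratio past 1.5-fold changed sign. Of all member ratios, 16 of 64 ratios in CCA, 23 of 72 in CCANT and 21 of 64 in cycling cells moved out of their counting intervals. In cycling CCA cells, *S100a10* ranged from log2 0.26 to 1.02, *S100a11* from 0.27 to 0.82 and *S100a6* from -0.34 to 0.13. The ends *S100a10* 1.02 and *S100a6* -0.34 came at 3 or more *Mki67* and *Top2a* UMIs. *S100a10* and *S100a11* thus passed 1.5-fold under some alternatives, which neither did in the main setting. Size factors moved the median gene by less than 0.1. One sex alone could not be compared between CCA and control. No paired analysis was possible because each group has 1 library.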

Other observations

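The cluster of microglia- and macrophage-like cells differed between libraries for *Anxa2*, *S100a11* and *S100b*. *Anxa2* had 81.4 CPM [74.2 to 89.1] in 226 control cells, 24.7 [19.8 to 30.4] in 149 CCA cells and 32.1 [26.1 to 39.1] in 156 CCANT cells, and *S100a11* had 142, 50.5 and 60.6 CPM. *Anxa5* stood at 198, 209 and 167 CPM in the same cells. *Cd74*, an antigen-presentation gene, had 10744, 9081 and 4727 CPM there, and *Ccr2*, the chemokine receptor of monocytes, 134, 42.9 and 39.0 CPM. *Igkc*, an antibody gene, had 82.6, 15.1 and 2869 CPM. When cells were taken by marker shares in place of clusters, 109 cells remained with 9.9 CPM of *Anxa2* and 36.4 of *S100a11* over the 3 libraries.

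In the same cluster, 12 of the 156 CCANT cells carried 158 *S100b* UMIs, of which 1 cell held 59, beside 15 UMIs in the control library. The level was 51.8 CPM in CCANT and 2.62 in control, log2 4.31 [3.54 to 5.18]. *Gfap* was at 8.21, 10.4 and 165 CPM in these cells in control, CCA and CCANT.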
